A study of Homo sapiens with 4 samples.

Results

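Huh7 is an established human hepatocellular carcinoma line, and part of its cells carry CD133 on their surface. The values below compare RNA of CD133-positive with RNA of CD133-negative Huh7 cells, separated by flow cytometry and measured on 1 Affymetrix gene array each. All 18377 genes of the table with a probe of exactly 1 gene symbol were taken, each through the probe that was brightest on average over the 4 arrays of the series, so the comparison uses 2 of 4 arrays and all 18377 of 18377 genes. The other arrays hold ALDH-positive and ALDH-negative cells, sorted from the same line for aldehyde dehydrogenase; their levels are printed beside those of the CD133 sort and are not compared here for their own sake. No treatment or time point is labelled, all fractions share the 1 line, and the gates, the share of cells in each fraction and the culture conditions are not given in the sources used here. The series sets such fractions against each other as cancer stem cells and other tumour cells. With 1 array a side no difference has a replicate check, so sizes are described and nothing is tested.

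CD133 is prominin-1, a cholesterol-binding protein with several membrane spans that sits on microvilli and other protrusions of the cell surface. It is made by several epithelia and by progenitor cells, and its antibody epitope is a common handle for sorting tumour cells that are then assayed for colony or tumour formation. Huh7 cells keep many secretory genes of the hepatocyte and also express genes that normal adult hepatocytes do not. Cells attach through matrix proteins, integrins and cadherins, and they pull on these attachments through actin and myosin; matrix attachment and tension are among the inputs to the coactivators YAP and TAZ, which act on DNA through TEAD factors.

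Levels are log2 values and, unless stated otherwise, are given first for CD133-positive cells, then for CD133-negative, ALDH-positive and, last, ALDH-negative cells. A difference is the level on the CD133-positive array minus that on the CD133-negative array. PROM1, the gene of CD133, stood at 9.0, 5.32, 7.11 and 8.39, a difference of 3.68 or 12.8-fold, in the direction of the labels. The ALDH-negative array was nearer to the CD133-positive one for PROM1 than the ALDH-positive array was. The hepatocyte origin showed on all 4 arrays: albumin, ALB, stood at 11.33, 11.71, 11.35 and 10.93, and alpha-fetoprotein, AFP, at 11.77, 11.86, 11.63 and 11.56. Hepatocyte products were lower in CD133-positive cells in 13 of 15 cases (median -0.38). In RNA of sorted fractions, fewer cells of a type and less RNA per cell cannot be told apart.

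Over the series the median level of an array ran from 4.92, on the CD133-negative array, to 5.04, and the arrays of the CD133 sort correlated at 0.989 over all probes. A gene was counted where the brighter array of the CD133 sort reached 4.98, the median of all values, called the floor here; 11591 genes did, and 10675 did on both arrays. Markers of other cells were only partly dim. Below the floor on all 4 arrays were 9 of 15 leukocyte and 6 of 12 fibroblast and stellate cell markers. So were 8 of 12 endothelial and 6 of 6 red cell markers. PTPRC, the leukocyte antigen CD45, stood at 2.45, 2.58, 2.64 and 2.52, and DCN, the fibroblast proteoglycan decorin, at 2.78, 2.85, 2.63 and 2.79. Above the floor on both CD133 arrays were COL1A1 (6.18 and 5.96), COL1A2 (6.21 and 5.81) and COL3A1 (5.40 and 5.01), collagens of fibroblasts. The summed linear level of the leukocyte markers was 609 in CD133-positive and 707 in CD133-negative cells, that of the endothelial markers 237 and 205, and that of the red cell markers 90.9 and 81.9. Among leukocyte genes above the floor were lysozyme, LYZ, at 7.52, 8.22, 7.77 and 6.44, and the lysosomal protein CD68 at 7.15, 7.08, 7.10 and 7.87.

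Of the 11591 genes, 4970 (42.9%) were higher and 6620 (57.1%) lower in CD133-positive cells, with a median difference of -0.04. The middle 95% of differences lay between -0.54 and 0.60. The upper side was longer: 318 genes (2.74%) passed 1.5-fold in the higher direction against 219 (1.89%) in the lower, and 83 (0.716%) passed 2-fold in the higher direction against 19 (0.164%) in the lower. At 3-fold the counts were 25 and 1. In 32 of the 83 higher genes and 6 of the 19 lower genes the dimmer array lay below the floor; for these a fold is given as "at least", with the floor in place of the dimmer value. Raising all values below the floor to it left 63 higher and 13 lower genes at 2-fold. These shares are the background for each list described below, and a list is read against them. After a loess fit of the difference on the level, 5768 of all genes were higher and 5823 lower, with a median of -0.002. After a second quantile normalization 5568 of the genes then counted were higher and 6101 lower. List counts after these steps are read against those.

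Dim genes differed more than bright ones. The standard deviation of the difference over genes was 0.479 for a mean level under 5, 0.330 between 5 and 6, 0.247 between 8 and 9 and 0.199 above 10. Genes 2-fold higher followed this spread only in part. They were 14 of 520 genes with a mean level under 5 and 29 of 3490 between 5 and 6. Between 6 and 7 they were 20 of 3538, between 7 and 8 12 of 2424, and between 8 and 9 8 of 1089. No gene of either direction lay above 10, where only 153 genes were counted. Where a gene had several probes above the floor, which 383 genes did, the differences of its probes had a standard deviation of 0.163 around the gene's mean. Over 339 olfactory receptor genes, of which 6 reached the floor, the difference had a standard deviation of 0.295 and 3 genes passed 2-fold. The median difference also moved with level: 0.22 under 5, 0.002 between 5 and 6, and -0.07 between 6 and 7. A dim gene can be counted through its brighter array alone, so the direction counts of dim lists are not independent of the floor.

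**Figure D1:**
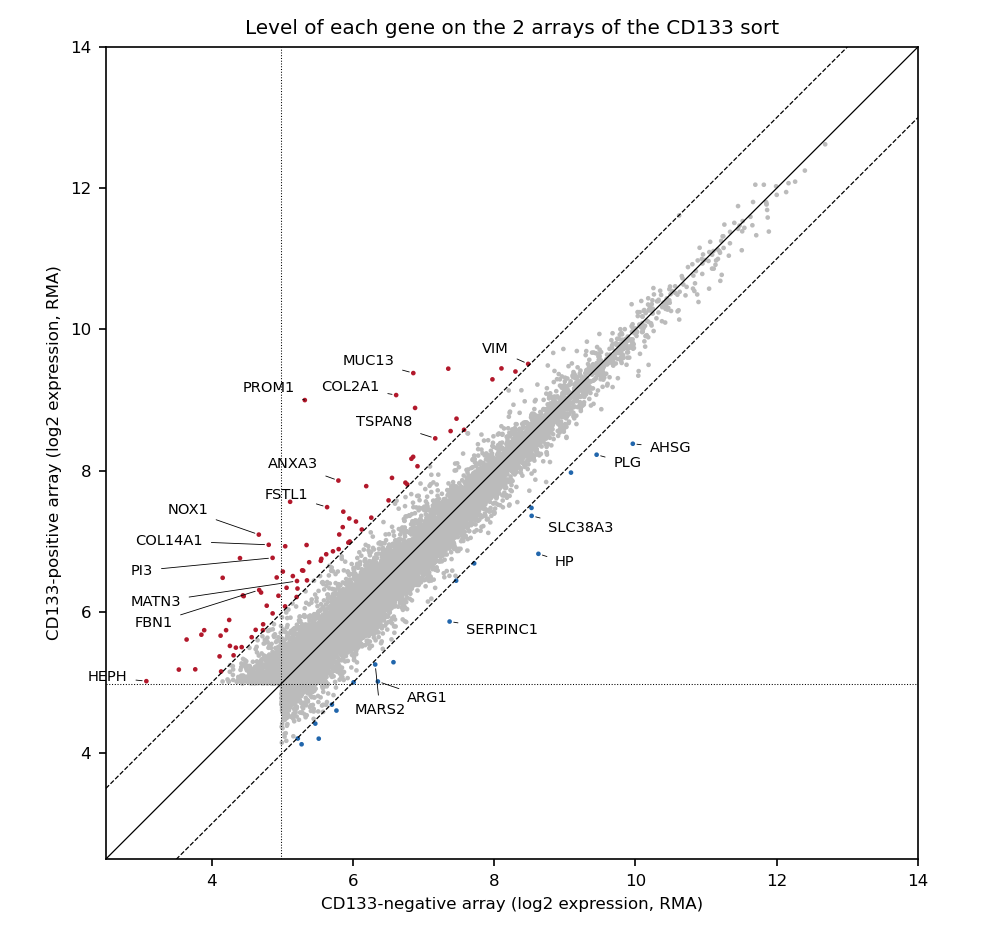
Level of each of 11591 genes on the CD133-negative array (x axis, log2) and the CD133-positive array (y axis, log2); dashed lines mark 2-fold, dotted lines the floor of 4.98, red points the 83 higher and blue points the 19 lower genes past 2-fold. PROM1 lies farthest from the diagonal, and the cloud narrows towards bright genes.

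Genes of the extracellular matrix were among those most often higher in CD133-positive cells. Of 40 laminins and matrix glycoproteins above the floor 30 were higher and 10 lower, with a median of 0.27; 9 passed 1.5-fold upwards and 1 downwards. Without a floor the median was 0.16. FBN1, fibrillin of the elastic microfibrils, stood at 6.31, 4.67, 5.0 and 5.76, which is at least 2.51-fold higher in CD133-positive than in CD133-negative cells. MATN3, the cartilage matrix protein matrilin, stood at 6.44, 5.21, 4.81 and 5.0, a 2.35-fold difference. On both genes the CD133-positive array was the highest of the 4, and for MATN3 the other arrays lay within a narrow band near the floor. SPARC, a collagen-binding matricellular protein, stood at 7.83, 6.74, 7.40 and 8.02, with the CD133-negative array the lowest and the CD133-positive array below the ALDH-negative one. EFEMP1, a fibulin, differed by 1.10. LTBP1, which anchors latent TGF-beta in the matrix, was at least 1.69-fold higher.

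Collagen chains were higher in 19 of 25 cases, with a median of 0.15, but only 3 of the 25 passed 1.5-fold and all 3 passed 2-fold. With a higher floor, the 75th percentile of the table, the median was 0.049. COL2A1, the fibrillar collagen of cartilage, stood at 9.07, 6.61, 8.32 and 9.50, a 5.50-fold difference. COL14A1 and COL12A1, which decorate the surface of collagen fibrils, were at least 3.91-fold and at least 1.87-fold higher, and both were below the floor in CD133-negative cells. The chains of fibroblast collagens differed less: COL1A2 by 0.40, COL3A1 by 0.39 and COL1A1 by 0.23. The proteoglycan versican, VCAN, stood at 6.49, 4.92, 6.17 and 6.57, at least 2.83-fold higher, while the 12 proteoglycan core proteins as a list were 7 higher and 5 lower, with a median of 0.04 that was -0.20 with the higher floor. The fibroblast and stellate markers, which hold some of these collagens, had a summed linear level of 386 in CD133-positive and 367 in CD133-negative cells; the smooth muscle actin ACTA2 lay below the floor on both arrays, at 4.50 and 4.32. The part of such cells in the collagen values was not tested.

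Among cytoskeletal lists, actin-binding proteins and myosins were higher more often than genes at large. Of 58 actin-bundling, capping and membrane-linker proteins 43 were higher (median 0.18), and of 22 myosins 19 were higher (median 0.21). Only 2 members of each list passed 1.5-fold. Tubulins, kinesins and dyneins were less shifted, with 44 higher and 37 lower (median 0.05), or 54.3% higher against 42.9% of all genes. Of these 81 genes 6 passed 1.5-fold upwards and 2 downwards. Cilium assembly genes went the other way, lower in 56 of 78 cases (median -0.14). TAGLN, the actin-binding transgelin, stood at 6.21 in CD133-positive cells and at 5.20, 5.09 and 5.12 on the other arrays. MYL9, a regulatory myosin light chain, differed by 0.74 and tropomyosin TPM2 by 0.56. Vimentin, VIM, the intermediate filament of mesenchymal and many cultured cells, stood at 9.51, 8.48, 8.59 and 8.62, a 2.04-fold difference. TAGLN and VIM shared a pattern in which the CD133-positive array stood apart and the other arrays lay close together.

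Keratins were higher in 9 of 10 cases, with a median of 0.30, and in 8 of 10 after a loess fit of the difference on the level. KRT19, a keratin of bile duct and progenitor-type epithelium, stood at 8.20, 6.85, 7.78 and 8.22, a 2.54-fold difference. The next was KRT16, at 0.59.

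Known targets of YAP and TEAD were higher in 18 of 23 cases, with a median of 0.27, and 6 of them passed 1.5-fold against none in the lower direction. FSTL1, a secreted follistatin-like glycoprotein, stood at 7.48, 5.63, 6.11 and 6.22, a 3.61-fold difference and the largest gap between the CD133-positive array and the nearest other array among the 83 genes, 1.27. ANKRD1, a nuclear ankyrin-repeat protein often read as an index of YAP activity, stood at 7.90, 6.55, 6.31 and 7.31. MYOF, a ferlin of membrane repair, was at least 2.44-fold higher, and the kinase gene NUAK2 at least 1.70-fold. TGFB2, which codes for a TGF-beta ligand, differed by 0.72. In all these genes the CD133-positive array was above the CD133-negative one. They were named for the size of their difference, and 5 of the 23 targets were lower. In NUAK2 the ALDH-negative array was higher than the CD133-positive one, at 6.03 against 5.75.

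**Figure D2:**
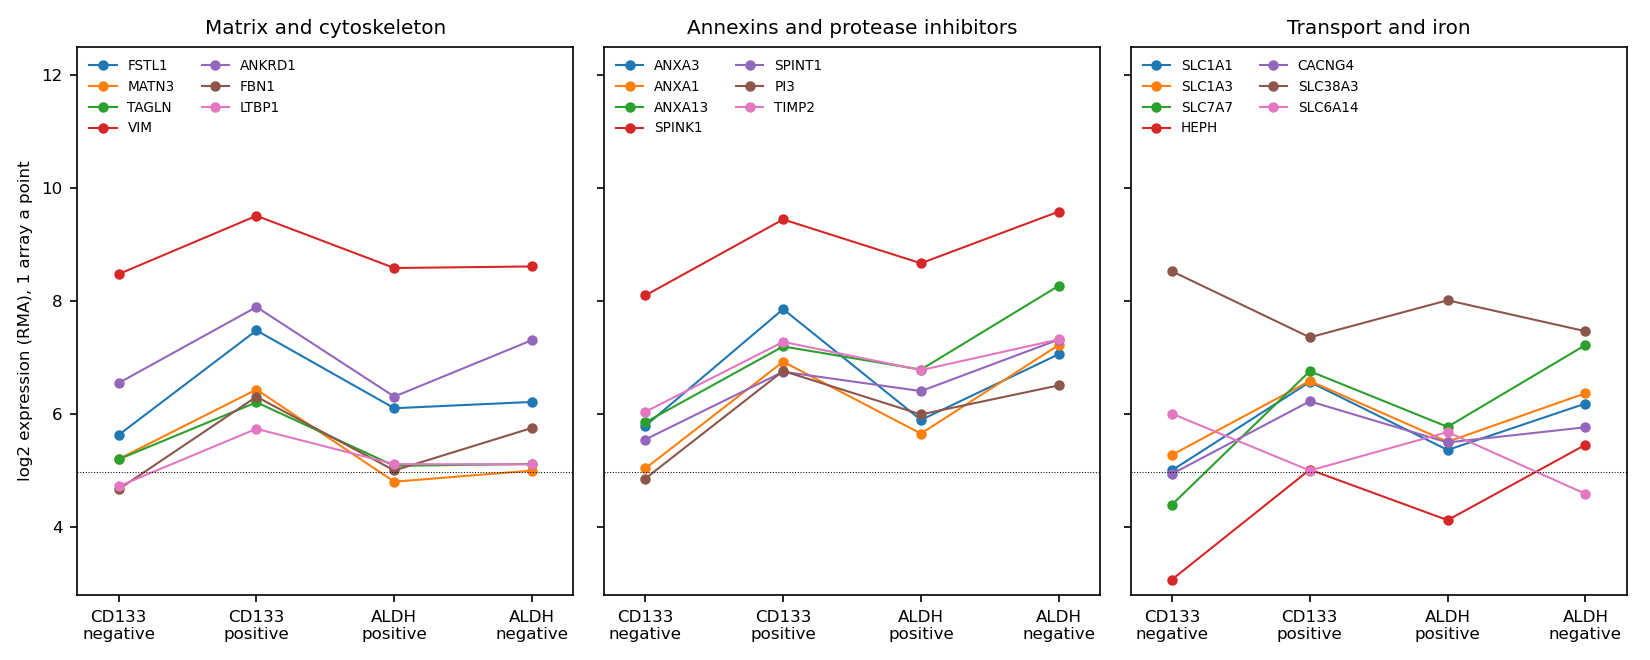
Log2 level (y axis) of 21 genes on each of the 4 arrays (x axis), 1 array a point, with lines that only join the points of a gene and a dotted line at the floor of 4.98. FSTL1, MATN3, TAGLN and VIM are high on the CD133-positive array alone, whereas ANXA13, SPINT1, SLC7A7 and HEPH are highest on the ALDH-negative array.

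Promoters are shown for genes of these groups because TEAD factors are known to bind the letters GGAATG. The windows are the 250 bases before an annotated start, from RefSeq on GRCh38.p14, and were searched on both strands. The sequences run 5′ to 3′ on the gene's strand, and capitals mark each match. For ANKRD1, at chr10:90921088-90921337 on the minus strand, matches began 220 and 128 bases before the start. For FBN1, at chr15:48644971-48645220 on the minus strand, the match began 58 bases before it.
ANKRD1: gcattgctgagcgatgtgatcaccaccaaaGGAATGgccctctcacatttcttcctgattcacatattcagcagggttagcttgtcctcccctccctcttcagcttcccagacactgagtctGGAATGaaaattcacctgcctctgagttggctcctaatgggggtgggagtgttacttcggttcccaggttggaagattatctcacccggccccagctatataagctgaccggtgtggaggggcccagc
FBN1: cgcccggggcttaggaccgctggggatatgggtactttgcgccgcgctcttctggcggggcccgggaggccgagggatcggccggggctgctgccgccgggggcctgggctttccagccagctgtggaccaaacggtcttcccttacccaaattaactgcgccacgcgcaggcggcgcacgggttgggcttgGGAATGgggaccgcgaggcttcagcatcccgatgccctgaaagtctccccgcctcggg
Windows were found for 56 of the 83 higher genes, 89 windows in all, and 14 of the 89 (15.7%) held GGAATG. Among the 13328 windows of genes above the floor the share was 9.78%, and among all 35116 RefSeq windows it was 11.9%. The letters TGANTCA, known from AP-1 sites, were in 12 of the 89 windows (13.5%) against 4.26% of windows of genes above the floor. Neither share was particular to higher genes: of 13 windows of lower genes 3 (23.1%) held GGAATG and 2 (15.4%) TGANTCA. PROM1 had 4 windows, of which 1 held TGANTCA and none GGAATG. A match describes the letters only.

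Hepatocyte nuclear factor HNF1 is known to bind palindromic sites built from GTTAAT, and these letters were in 10 of the 89 windows (11.2%) of higher genes and in 3 of 13 windows (23.1%) of lower genes, against 3.91% among genes above the floor. Examples in both directions are the brush-border disaccharidase SI and the anion exchanger SLC26A3, higher in CD133-positive cells, and the plasma apolipoprotein APOH, lower there. All 3 lie on the minus strand: SI at chr3:165078497-165078746 with a match 166 bases before the start, SLC26A3 at chr7:107803224-107803473 with matches at 93 and 83, and APOH at chr17:66229416-66229665 with matches at 210 and 49. ATTAAC in capitals is the same match read from the other strand.
SI: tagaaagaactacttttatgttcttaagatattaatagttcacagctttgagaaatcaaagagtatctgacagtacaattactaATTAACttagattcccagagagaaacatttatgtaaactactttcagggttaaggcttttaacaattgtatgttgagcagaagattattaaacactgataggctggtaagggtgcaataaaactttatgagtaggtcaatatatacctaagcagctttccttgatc
SLC26A3: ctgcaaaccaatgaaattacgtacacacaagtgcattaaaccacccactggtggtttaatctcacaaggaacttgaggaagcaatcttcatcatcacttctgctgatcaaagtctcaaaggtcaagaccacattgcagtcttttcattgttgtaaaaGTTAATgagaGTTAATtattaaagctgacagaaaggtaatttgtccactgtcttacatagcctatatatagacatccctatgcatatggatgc
APOH: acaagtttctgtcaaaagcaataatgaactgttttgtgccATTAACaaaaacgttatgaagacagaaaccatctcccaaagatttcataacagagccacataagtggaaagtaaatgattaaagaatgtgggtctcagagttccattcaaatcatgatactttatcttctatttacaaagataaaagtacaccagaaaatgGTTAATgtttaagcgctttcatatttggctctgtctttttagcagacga
SI stood at 7.56, 5.11, 6.30 and 8.08, SLC26A3 at 6.48, 4.15, 5.26 and 7.50, and APOH at 8.53 in CD133-negative against 7.47 in CD133-positive cells. The GC-rich letters GGGCGG went the other way, in 36.0% of the windows of higher and 15.4% of those of lower genes against 63.8% among genes above the floor. For each motif searched, the windows of higher and of lower genes lay on the same side of the share among genes above the floor.

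Several inhibitors of proteases were among the genes higher in CD133-positive cells. Among 32 trypsin-type serine proteases and Kunitz or Kazal inhibitors 25 were higher and 7 lower, with a median of 0.23; 10 passed 1.5-fold upwards and 1 downwards. The median was 0.13 without a floor and 0.40 with the higher floor. SPINK1, the pancreatic-type trypsin inhibitor, stood at 9.45, 8.10, 8.67 and 9.59, a 2.54-fold difference. SPINT1, a membrane-bound inhibitor of the activator of hepatocyte growth factor, stood at 6.75, 5.55, 6.41 and 7.32. The elastase inhibitor elafin, PI3, was at least 3.44-fold higher, with 6.77, 4.86, 6.0 and 6.51. In SPINK1 and SPINT1 the ALDH-negative array exceeded the CD133-positive one, in PI3 it did not. The mesotrypsin gene PRSS3 differed by 1.05 and the trypsinogen pseudogene PRSS3P2 by 1.28; the trypsin family shares sequence, so signal may be split between them. HTRA3, a secreted serine protease, was the member lower at 1.5-fold, at 7.12 against 7.92.

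Metalloproteases and their inhibitors were higher in 21 of 30 cases, with a median of 0.17, and all 6 members past 1.5-fold were higher. TIMP2, an inhibitor of matrix metalloproteases, stood at 7.28, 6.04, 6.78 and 7.32, and TIMP1 at 6.89, 5.80, 6.47 and 6.94. The membrane protease MMP14 stood at 7.48, 6.86, 7.08 and 7.50, a smaller difference of 0.63. TFPI2, another Kunitz inhibitor of matrix-degrading proteases, was at least 1.32-fold higher.

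Adhesion molecules were divided by family. Cadherins were higher in 22 of 28 cases, with a median of 0.10, led after the intestinal CDH17 (2.10) by N-cadherin, CDH2, at 9.49, 8.76, 8.75 and 9.08. Desmosome and gap junction proteins were higher in 14 of 17 cases (median 0.14), with the gap junction connexin GJA1 at 0.60 and plakophilin PKP2 at 0.40. Integrin subunits were 5 higher and 6 lower, with a median of -0.05, which was 0.20 without a floor and 0.01 after the loess fit. ITGAV and ITGB8, which pair into a receptor that binds latent TGF-beta, both differed upwards: ITGAV stood at 8.93, 8.27, 8.17 and 8.70, and ITGB8 at 5.66, 4.13, 4.87 and 6.0, at least 1.60-fold higher. Immunoglobulin-type adhesion molecules were split at 12 higher and 11 lower, with a median of 0.07, or -0.046 with the higher floor. PVR, the poliovirus receptor, differed by 0.75 and NRCAM by 0.82. VCAM1, the vascular cell adhesion molecule, was lower, at 5.70 against 6.59, with 5.60 and 4.96 on the ALDH arrays.

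EPCAM, an epithelial adhesion molecule used as a marker of hepatic progenitor cells, stood at 9.40, 8.30, 7.88 and 8.89; its 2 probes differed by 1.10 and 0.77. Of 9 surface markers used to sort liver cancer cells, 5 were higher and 4 lower, with a median of 0.16, and PROM1 is one of them. The efflux pump ABCG2, which marks cells that exclude dyes, stood at 6.51, 5.53, 5.61 and 6.87. LGR5, the receptor of R-spondins on intestinal stem cells, went the other way, at 5.32, 6.02, 5.47 and 5.39. The related efflux pump ABCB1, named after its values were seen, stood at 8.58, 7.57, 8.02 and 9.09.

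Annexins, which bind acidic phospholipids when calcium is present, held 3 members past 2-fold. Of 10 annexins 8 were higher and 2 lower, with a median of 0.14. ANXA3 stood at 7.86, 5.79, 5.90 and 7.06, a 4.19-fold difference. ANXA1, an inhibitor of inflammatory phospholipase activity, stood at 6.93, 5.04, 5.66 and 7.23, a 3.70-fold difference. ANXA13, the annexin of intestinal epithelium, stood at 7.20, 5.86, 6.79 and 8.27. In all 3 the CD133-negative array was the lowest, and ANXA6, which is abundant in liver, was lower in CD133-positive cells, at 8.66 against 9.16.

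The S100 proteins, small calcium binders that partner with annexins, were higher in 9 of 9 cases with a median of 0.35, and in 8 of 9 after the loess fit or a further quantile normalization; without a floor the median was 0.091. S100A11, a partner of annexins, stood at 7.80, 7.19, 7.39 and 7.80. S100A6 differed by 0.55, S100A16 by 0.45 and S100A14 was at least 1.42-fold higher. Tetraspanins were 17 higher and 10 lower (median 0.11); TSPAN8 stood at 8.46, 7.17, 7.14 and 8.26, a 2.45-fold difference, and the next, TSPAN15, differed by 0.52. Claudins, the sealing proteins of tight junctions, were 8 higher and 5 lower, or 11 and 2 after the loess fit, led by CLDN7 at 6.65, 5.67, 6.33 and 7.31 and by CLDN4, at least 1.70-fold higher.

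Solute carriers as a family lay near the background in direction: 96 of 217 were higher and 121 lower, with a median of -0.04. Large differences were more frequent than among genes at large, both upwards and downwards. Past 1.5-fold were 12 and 10 of the 217, against 2.74% and 1.89% of all genes. Past 2-fold were 6 and 3, against 0.716% and 0.164%. Among them were several carriers of amino acids that differed in opposite directions. The glutamate transporters SLC1A1 and SLC1A3 were both higher; SLC1A1 stood at 6.57, 5.01, 5.37 and 6.19, a 2.96-fold difference, and SLC1A3 at 6.59, 5.28, 5.51 and 6.37, a 2.48-fold difference. SLC7A7, the light subunit of an exchanger of cationic for neutral amino acids, stood at 6.76, 4.40, 5.78 and 7.22, at least 3.43-fold higher. SLC38A3, a glutamine carrier of hepatocytes, stood at 7.36, 8.53, 8.02 and 7.47, a 2.25-fold difference the other way. SLC6A14, an importer of neutral and cationic amino acids, was 2.01-fold lower, at 5.0, 6.01, 5.68 and 4.59. The hepatocyte uptake carrier of bile acids and drugs SLCO1B3 was at least 1.40-fold lower. SLC37A1, a phosphate-linked carrier of glucose phosphate, differed by 1.29 and SLC44A3, of the choline transporter-like family, by 1.08.

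Among genes that reached the floor on at least 1 CD133 array, ion channels were higher more often than genes at large. Of 36 chloride, sodium and calcium channel genes 29 were higher, with a median of 0.13, and of 29 potassium channel genes 20, with a median of 0.15. After the loess fit on level the counts were 29 and 18. Most of the named members were near the floor, and some, such as CACNG4, reached it on only 1 of the CD133 arrays. The counts of higher and lower channels are therefore not independent of the floor. CACNG4, a channel subunit that also accompanies glutamate receptors, stood at 6.23, 4.94, 5.50 and 5.77, at least 2.37-fold higher. CACNB3, a calcium channel beta subunit, differed by 0.78 with both arrays above the floor. TRPM6, the magnesium channel of intestine and kidney, was at least 1.22-fold higher, and the potassium channels KCNJ16 and KCNJ8 at least 1.25-fold and at least 1.32-fold. KCNMB3, a subunit of calcium-activated potassium channels, was at least 1.37-fold lower. FXYD3, a regulator of the sodium pump, stood at 7.33, 6.26, 7.53 and 8.81, while the 24 ion pump genes were 11 higher and 13 lower.

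The inositol trisphosphate receptors, which release calcium from the endoplasmic reticulum, differed in opposite directions. ITPR3 stood at 6.58, 5.69, 6.26 and 7.01, and ITPR2, the form known to predominate in hepatocytes, at 5.17, 6.05, 5.50 and 5.41. The differences were 0.89 and -0.88.

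Metal-handling genes were lower somewhat more often than genes at large, with single genes far in the other direction. Of 23 iron genes 15 were lower (65.2%, against 57.1% of all genes), and the median was -0.16. After the loess fit 13 were lower and 10 higher, against 5823 lower and 5768 higher among all genes. Hephaestin, HEPH, the ferroxidase that helps iron leave the enterocyte, stood at 5.02, 3.07, 4.13 and 5.46; its brighter array only just reached the floor, so the bound is at least 1.02-fold. The soluble ferroxidase of plasma, ceruloplasmin, CP, went the other way at 7.46 against 8.01. CUBN, the receptor of intrinsic factor with vitamin B12, was at least 1.69-fold higher. Metallothioneins and zinc or copper carriers were lower in 26 of 39 cases (66.7%, median -0.14), and in 23 after the loess fit. The zinc importer SLC39A4 stood at 6.79, 5.84, 6.63 and 7.77 and the zinc exporter SLC30A1 at 6.57, 5.79, 4.83 and 4.92. MT1B and MT1M, metallothioneins that buffer zinc, were lower, by -0.62 and -0.52; metallothionein genes are near copies, so their values may be shared.

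Redox and retinoid enzymes held a few large differences within lists near the background. NOX1, a superoxide-producing oxidase of colon epithelium, stood at 7.09, 4.67, 5.89 and 7.98, at least 4.32-fold higher, in a list of 28 peroxiredoxins, thioredoxins and superoxide enzymes with 11 higher and 17 lower, or 15 and 13 after the loess fit. AKR1B10, a reductase of retinal and other aldehydes that is frequent in liver tumours, stood at 6.70, 5.38, 5.12 and 6.32, and the retinol dehydrogenase RDH10 at 8.53, 7.62, 7.80 and 8.66. HSD17B2, which inactivates sex steroids, was lower, at 6.51, 7.37, 7.38 and 7.27, with the CD133-positive array apart from the other 3. Glutathione transferases and glutathione synthesis genes were 17 higher and 11 lower (median 0.09), with MGST3 at 0.65 and GSTA2, which has close copies, at least 1.54-fold higher. Among the glucuronosyltransferases, UGT2B4 and UGT2B10 were lower by -0.80 and -0.79.

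Ligands of growth factor families were higher in 28 of 36 cases, with a median of 0.24, and 6 passed 1.5-fold, all higher; most were near the floor, and with that higher floor the median was -0.068. BMP4, a bone morphogenetic protein, stood at 5.74, 5.02, 5.15 and 4.92. GDF2, a ligand of the same family that liver secretes, was at least 1.20-fold higher, and the heparin-binding factor pleiotrophin, PTN, at least 1.22-fold. Receptor tyrosine kinases did not follow: 11 were higher and 13 lower, with a median of -0.01, or 0.10 without a floor. The core TGF-beta and BMP pathway was 21 higher and 24 lower, or 30 and 15 after the loess fit, with a median of -0.01, or 0.05 after that fit.

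Wnt ligands, receptors and feedback genes were higher in 33 of 43 cases, with a median of 0.22, and 2 passed 1.5-fold in each direction. The ligand WNT9A stood at 5.94, 5.30, 5.79 and 5.89, and the receptor FZD3 at 6.55, 5.94, 5.94 and 6.83. LGR5, a target and amplifier of the pathway, was lower, as given above. Notch receptors, ligands and targets were 13 higher and 9 lower with none past 1.5-fold. Outputs of the MAPK-ERK cascade were 11 higher and 14 lower; DUSP4, a phosphatase that ERK induces, was at least 2.15-fold higher, and FOS stood at 6.80, 6.12, 7.26 and 7.42.

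G-protein-coupled receptors for small ligands and peptides were 54 higher and 34 lower, with a median of 0.10. The orphan adhesion receptor ADGRG7 stood at 6.22, 4.45, 5.56 and 6.99, at least 2.36-fold higher. AGTR1, the angiotensin receptor of liver and vessel, stood at 6.19, 7.11, 6.43 and 6.67, and the muscarinic receptor CHRM3 was at least 1.18-fold lower. GUCY2C, the receptor guanylate cyclase of gut peptides, stood at 8.06, 6.91, 7.16 and 8.34, and PDE3A, which degrades cyclic nucleotides, differed by 0.72. Natriuretic peptide B, NPPB, itself an activator of a guanylate cyclase, was 2.29-fold higher, at 6.82, 5.62, 6.08 and 6.48.

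Genes of chemokines, interleukins and their receptors were 32 higher and 20 lower, with a median of 0.13. IL18, an interleukin that is stored as a precursor in epithelial cells, stood at 6.95, 5.34, 5.45 and 7.16, a 3.04-fold difference. The neutrophil chemokine CXCL5 differed by 0.69, CXCL8 was at least 1.49-fold higher and the macrophage growth factor IL34 at least 1.57-fold. Interferon response genes were 7 higher and 9 lower, with none past 1.5-fold; their median was -0.13, and 0.15 without a floor.

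Transcription factors differed by family. Homeobox genes were higher in 51 of 75 cases, with a median of 0.13, which was -0.010 with the higher floor. CDX2, the homeobox factor that specifies intestine, stood at 8.53, 7.63, 7.90 and 8.58. KLF and SP factors were 10 higher and 10 lower, with the epithelial factors KLF4, at 6.12, 5.14, 6.03 and 7.10, and KLF5, at 8.24, 7.56, 8.04 and 8.37, as the members past 1.5-fold upwards. SOX4, a factor of progenitor cells and many tumours, stood at 7.79, 7.08, 6.65 and 6.70. Nuclear receptors were lower in 18 of 23 cases, with a median of -0.14 and none past 1.5-fold; HNF4G, a close relative of the hepatocyte factor HNF4A, was one of the 5 higher ones, at 0.55, and the clock repressor NR1D2 differed by -0.53. ZHX2, a repressor of alpha-fetoprotein in the adult liver, was lower, at 6.59, 7.41, 6.85 and 6.98, while AFP itself differed by -0.09.

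On the lower side the sizes were small and the members many. Ribosome biogenesis factors were lower in 48 of 52 cases (92.3%), with a median of -0.22 against the -0.04 and 57.1% of all genes; the counts were 43 and 46 of 52 after loess and after a further quantile normalization. Only 1 member passed 1.5-fold. LTV1, a factor that matures the small subunit, stood at 7.31, 7.90, 6.95 and 7.0, and NOB1, the nuclease that makes the final cut of its RNA, at 7.01, 7.56, 6.76 and 6.54. In both the CD133-negative array was the highest of 4 and the CD133-positive array the next. PES1, needed for the large subunit, differed by -0.54.

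Small nucleolar and Cajal body RNAs, which guide the chemical modification of ribosomal and spliceosomal RNA, were lower in 82 of 93 cases with a median of -0.20. SNORA5A stood at 5.18, 5.83, 4.96 and 5.64, and SNORD58A at 5.21, 5.84, 4.45 and 5.62; both lie close to the floor, and small RNAs of this size are measured through few array sequences. Spliceosome and hnRNP proteins were lower in 120 of 145 cases (median -0.14), and in 103 after the loess fit. The splicing helicase DHX38 led them at 7.03, 7.63, 7.12 and 6.86. Cytosolic ribosomal proteins were lower in 47 of 68 cases and mitochondrial ones in 54 of 72, or in 39 and 44 after the loess fit, with medians of -0.08 and -0.10. Aminoacyl-tRNA synthetases were lower in 25 of 34 cases; MARS2, which charges the methionine tRNA of mitochondria, stood at 5.26, 6.31, 6.01 and 5.58, a 2.08-fold difference, and the glycyl-tRNA synthetase GARS1 was higher, at 9.0 against 8.59.

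DNA replication and S-phase genes were lower in 40 of 46 cases (87.0%), or in 34 after the loess fit, with a median of -0.17. GINS2, a part of the replicative helicase, stood at 7.05, 7.67, 7.36 and 6.60, and the licensing factor CDT1 at 7.52, 8.06, 7.64 and 7.15. The origin-firing factor MCM10 and the polymerase subunit POLA1 differed by -0.39 and -0.40. In GINS2, CDT1 and MCM10 the ALDH-negative array was the lowest of 4. Mitotic genes did not share the shift: 25 were higher and 30 lower, with a median of -0.01, and after the loess fit 33 were higher and 22 lower. The proliferation marker MKI67 differed by -0.45 and the mitotic kinase gene AURKA by 0.36.

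Replication-dependent histones were lower in 32 of 43 cases, with a median of -0.22; the linker histone H1-2 stood at 7.27, 7.94, 7.12 and 6.04 and H2AC14 went the other way, at 7.10 against 6.46. Histone genes are near copies, so single members are uncertain. DNA repair genes were lower in 49 of 66 cases, with a median of -0.16. TDG, the thymine glycosylase that also removes oxidised methylcytosine, stood at 5.48, 6.42, 4.74 and 5.05, a 1.93-fold difference. BRCA1, of homologous recombination, stood at 6.30, 6.91, 6.66 and 5.92, and FANCB and RAD50 differed by -0.62 and -0.56. TET2, which oxidises methylcytosine ahead of TDG, differed by -0.62 and -0.61 on its 2 probes, and TET1, close to the floor, was at least 1.56-fold lower.

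Zinc-finger genes with numbered ZNF symbols, largely repressors of the KRAB type, formed the largest list: 218 of 299 were lower (72.9%), with a median of -0.14, and 15 passed 1.5-fold downwards against 2 upwards. ZNF724 stood at 6.15, 7.06, 5.07 and 4.88, and ZNF160 at 5.56, 6.40, 6.47 and 6.74. The genes thus differed in where the ALDH arrays lay: below both CD133 arrays for ZNF724 and at or above the CD133-negative array for ZNF160. Members of this family share zinc-finger sequence.

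**Figure D3:**
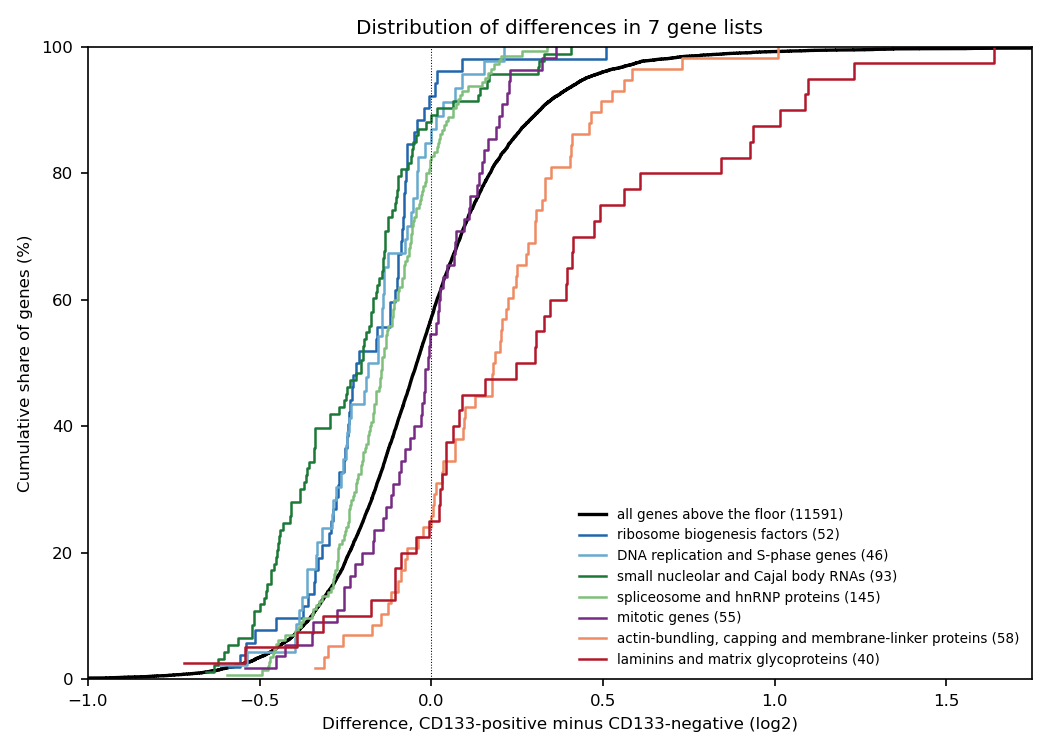
Cumulative share (y axis, percent) of genes at or below a given difference (x axis, log2) for all 11591 genes and for 7 lists, with list sizes in the key. The curves of ribosome biogenesis, S-phase, splicing and small nucleolar RNA genes lie left of the curve of all genes, that of mitotic genes close to it, and those of actin-binding and matrix genes right of it.

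**Figure D4:**
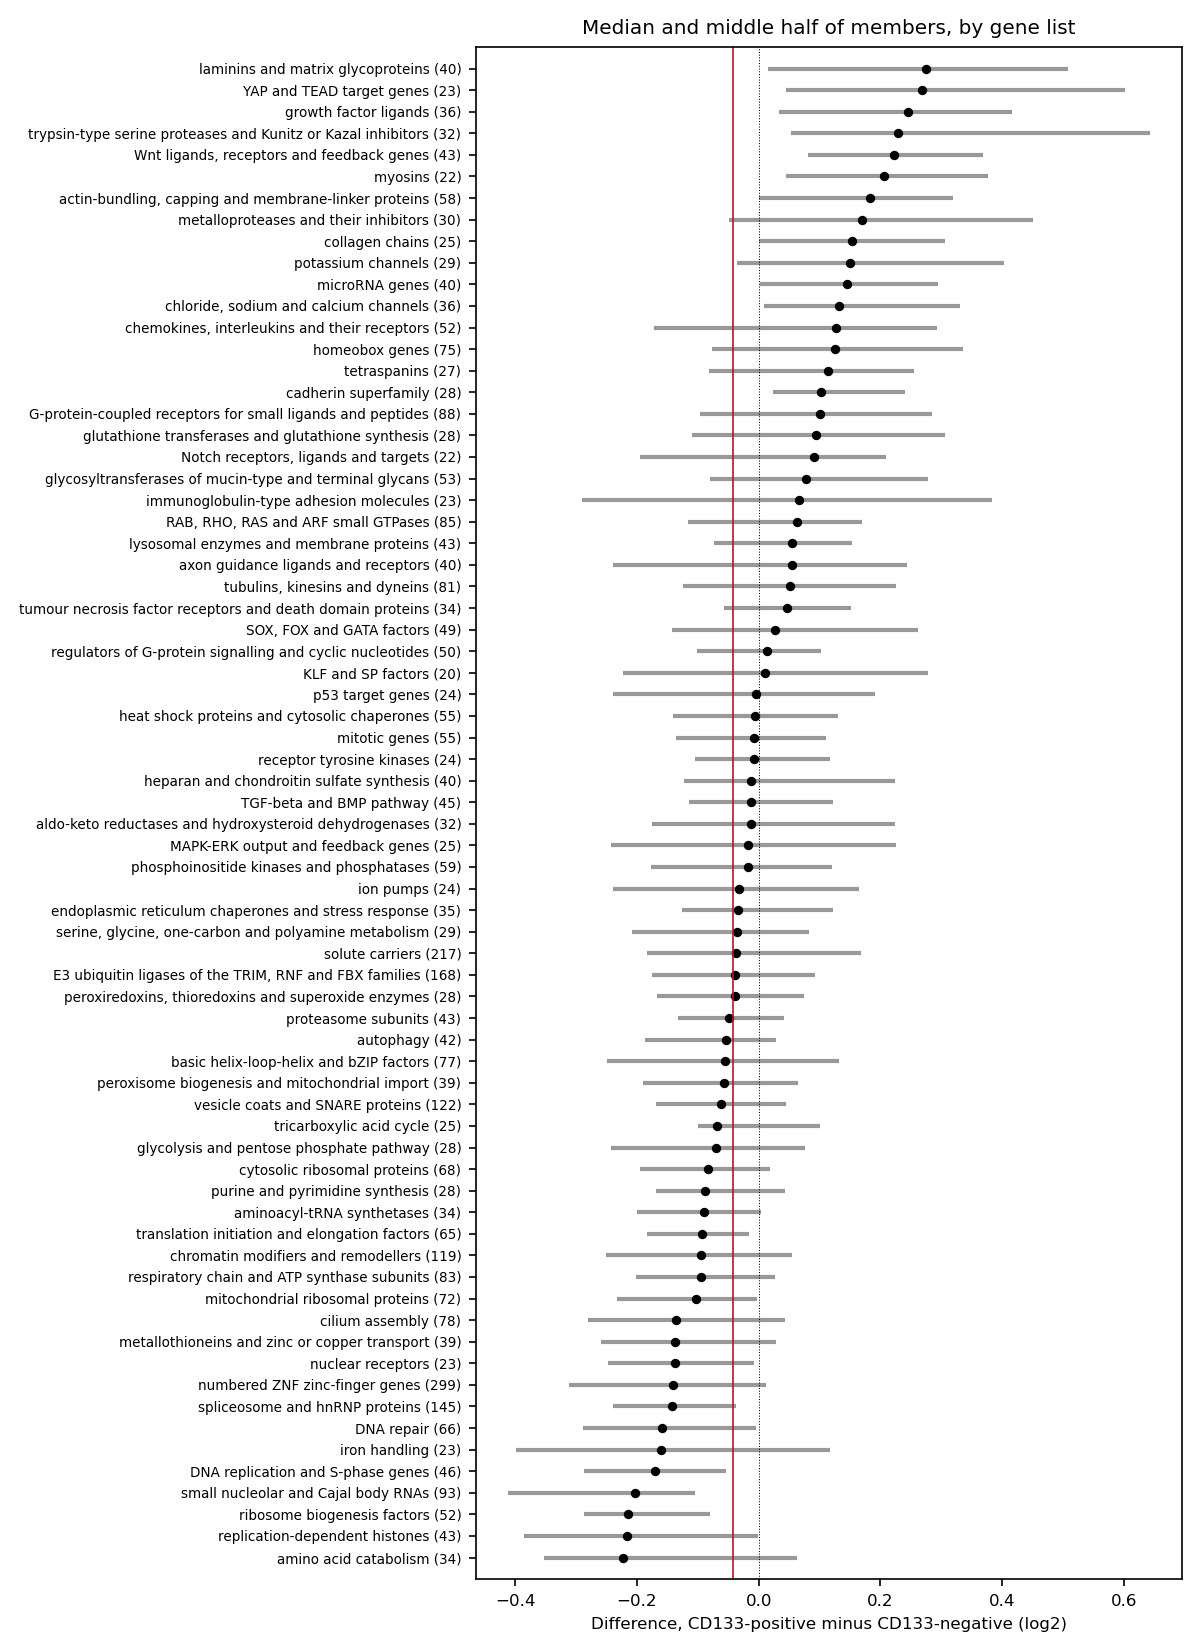
Median difference (points) and range of the middle 50% of members (grey bars) for each list with at least 20 members above the floor, on the log2 scale; the red line is the median of all genes, -0.04, and the dotted line is 0. List medians ran from 0.27 in laminins and matrix glycoproteins and in YAP and TEAD targets to -0.22 in amino acid catabolism and in histones, while the range of members in most lists crossed 0.

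Other housekeeping lists had medians between -0.10 and 0.05. Respiratory chain subunits were lower in 56 of 83 cases (47 after the loess fit) with a median of -0.10, proteasome subunits in 31 of 43 (22) with a median of -0.05, and autophagy genes in 29 of 42 (23) with a median of -0.05. Lysosomal genes were 25 higher and 18 lower, or 31 and 12 after the loess fit, with a median of 0.05. Heat shock proteins were 27 higher and 28 lower, or 33 and 22, and targets of p53 were 12 higher and 12 lower, or 15 and 9. Among these lists the small heat shock protein HSPB8 was at least 1.59-fold higher, and TXNIP, an inhibitor of thioredoxin, differed by 0.56.

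Of the secretory route, STX3, a syntaxin of the apical membrane, stood at 7.46, 6.65, 7.14 and 7.87. SYTL5, a synaptotagmin-like protein, stood at 6.33, 5.21, 5.32 and 6.33. The list of 122 vesicle genes had 40 higher and 82 lower, or 59 and 63 after the loess fit. GOLM1, a Golgi protein shed into serum in liver cancer, stood at 9.29, 7.97, 8.75 and 9.51. Glycosyltransferases of mucin-type and terminal glycans were 34 higher and 19 lower (median 0.08), led by B3GNT5, at least 1.79-fold higher, and GCNT3, which branches mucin glycans, at 6.75, 5.84, 6.31 and 6.87. PAPSS2, which makes the sulfate donor for glycans, stood at 7.80, 6.77, 7.32 and 8.17. The trefoil peptide TFF1 stood at 7.78, 6.19, 6.86 and 8.10. The long noncoding RNA UCA1, known from bladder and other cancers, was 2.41-fold higher, at 8.74, 7.47, 8.04 and 9.23.

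Lower genes past 2-fold included plasma proteins beyond those of the hepatocyte list. Antithrombin, SERPINC1, stood at 5.86, 7.37, 6.56 and 6.72, and plasminogen, PLG, at 8.23, 9.45, 9.20 and 9.41. LBP, which carries bacterial lipopolysaccharide, stood at 6.69, 7.72, 7.56 and 7.01, and the acid glycoprotein ORM1, which has a close copy, at 7.97, 9.09, 8.07 and 7.72. In PLG and SERPINC1 the CD133-positive array was the lowest of 4, whereas ORM1 was lowest on the ALDH-negative array. Short of 2-fold were GPAM, an acyltransferase of triglyceride synthesis, at -0.94, and CASP8AP2, a protein of histone transcript processing, which stood at 5.06, 5.92, 5.23 and 5.41. The 2 probes of CCDC88C did not share a direction, at -0.90 and 0.10.

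The place of the genes past 2-fold among all 4 arrays is given as a description. Of the 83 higher genes, 75 were lowest on the CD133-negative array, 7 on the ALDH-positive and 1 on the ALDH-negative array. The highest array was the CD133-positive one for 31 of the 83 and the ALDH-negative one for 52. Of the 19 lower genes, 17 were highest on the CD133-negative array and 15 lowest on the CD133-positive array. These genes were chosen for a large gap between the CD133 arrays, which by itself favours those arrays as the highest and the lowest, so the counts do not show that either side stood apart.

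A subset of 13 of the 83 genes stood at least 0.5 higher on the CD133-positive array than on each of the other 3. These were, by their margin over the next array, FSTL1 (1.27), MATN3 (1.23), THUMPD3-AS1 (1.05), TAGLN (1.01), VIM (0.90), ANXA3 (0.80), LTBP1 (0.63), PROM1 (0.61), ANKRD1 (0.59), ARSJ (0.57), FBN1 (0.55), TFPI2 (0.53) and EPCAM (0.52). Of the genes outside this subset, MUC13, a membrane mucin, stood at 9.38, 6.85, 8.76 and 10.36 and DPP4, a brush-border peptidase, at 8.89, 6.88, 7.76 and 9.25, each highest on the ALDH-negative array. THUMPD3-AS1 and ARSJ, a sulfatase gene, were named after their values were seen, and both lay below the floor in CD133-negative cells.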

How the data were processed

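Trizol was used for the RNA of the sorted Huh7 fractions and biotin for labelling, as the labels' protocols say. The authors deposited log2 values made with RMA, per the submitters' processing notes, and their range, 0.556 to 13.5, is that of a log2 scale. Software versions, the genome build of the probes and any centring after RMA are not given in the sources used here. RMA gives the arrays near-equal distributions, so a shift shared by most genes would not be seen, and it narrows differences of dim probes.

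Of 28869 probes, 19310 had exactly 1 gene symbol in the platform annotation, 1752 had several and 7807 were not listed; 19279 of the first group matched a RefSeq gene. A gene took its probe with the highest mean over 4 arrays, which gave 18377 genes, 685 of them with more than 1 probe. Levels are those of the probe and are not compared between genes.

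The log2 value of the CD133-negative array was subtracted from that of the CD133-positive array. No test was made, since there is 1 array a side, and whether the fractions came from separate cultures is not given in the sources used here; the number of arrays limits the precision. The 94 gene lists and their members were chosen with earlier results of these data known, partly by symbol pattern, so some lists hold a pseudogene or host gene of the family. Named were PROM1, up to 4 members of each list with the largest absolute difference and further members at 2-fold, the 40 highest and the 40 lowest differences among genes above the floor on both arrays, and markers of other cells; others are marked in the text. Alternatives were other fold thresholds and floors, values raised to the floor, other choices of probe, centring of the pair, a second quantile normalization and a loess fit with a span of 0.4. The comparison was tested on simulated data in which only genes well above the floor carried a known difference and noise was equal at all levels. That test does not cover dim genes. Promoter windows came from RefSeq on GRCh38.p14 and hold 250 bases; 56 of 83 and 12 of 19 genes past 2-fold had one. Python 3.11.15, pandas 2.3.3, numpy 2.4.6, statsmodels 0.14.6 and matplotlib 3.10.9 were used.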

Additional observations from a re-analysis of the deposited data

How the results depend on the processing

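PROM1 kept its difference under every alternative tried for it. The count of genes at least 2-fold higher, 83, was 50 with a floor at the 75th percentile and 51 with both arrays above the floor, and 318 at 1.5-fold and 25 at 3-fold; the count at least 2-fold lower, 19, was 30 without a floor, 10 with the floor at the 75th percentile, 219 at 1.5-fold and 1 at 3-fold. After the loess fit, 78 of the 83 and 16 of the 19 genes were kept, and after the second quantile normalization 78 and 15. Of 426 named genes, those past 2-fold kept their sign in every alternative compared, and sign changes of smaller differences were not counted. Across named genes and alternatives, 112 values moved by the spread between probes, 0.163, or more, and 2442 moved by less. Of 88 list medians, 31 had the other sign in at least 1 alternative, 17 of them after the loess fit; most of these lay within 0.1 of 0, and 5 lay beyond it. Of these 5, the interferon response median was 0.15 without a floor; without a floor the medians were 0.20 in integrins, 0.16 in matrix glycoproteins, 0.13 in serine proteases, 0.10 in receptor tyrosine kinases, -0.050 in glucuronosyltransferases and sulfotransferases, 0.17 in keratins and 0.091 in S100 proteins. The other 4 turned with the floor at the 75th percentile: growth factor ligands (-0.068), cytochrome P450 enzymes (-0.26), homeobox genes (-0.010) and synaptic genes (-0.20). With that floor the medians were -0.046 in immunoglobulin-type adhesion molecules, -0.15 in axon guidance and in MAPK-ERK outputs, 0.049 in collagens, -0.20 in proteoglycans, 0.40 in serine proteases, -0.61 in glucuronosyltransferases and sulfotransferases, -0.29 in iron genes, 0.16 in other intermediate filaments and 0.22 in S100 proteins. With both arrays above the floor proteoglycans were at -0.13, growth factors at 0.14 and other intermediate filaments at 0.16; with values raised to the floor growth factors were at 0.14 and cytochrome P450 enzymes at 0.016; with the mean over probes antigen presentation was at 0.19 and glucuronosyltransferases and sulfotransferases at -0.24. Signs were taken against 0. The median of all genes itself moved from -0.04 to 0 with the pair centred and to -0.002 after the loess fit. A list median just below 0 can turn sign through that shift alone. A floor changes which members are counted, and the other alternatives change members' values. Beyond these points the cause was not tested. No paired analysis was possible because each fraction has 1 array and the labels carry no replicate numbers. Signal near the floor limits the folds of dim genes most.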

Other observations

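Chromosome 13 had the lowest median difference of the chromosomes: 124 of its 172 genes above the floor (72.1%) were lower in CD133-positive cells, and their median was -0.16, next to -0.09 on chromosome 12. It stayed the lowest under each alternative tried. Set against the mean of the 4 arrays, the median gene of chromosome 13 deviated by 0.16 on the CD133-negative array, 0.03 on the CD133-positive, -0.09 on the ALDH-positive and -0.07 on the ALDH-negative array, so the CD133-negative array was the one farthest from the mean. An upward deviation of that array was not particular to chromosome 13. It was 0.13 on chromosome 18, 0.11 on 12, 0.10 on 3 and 0.09 on 6, while chromosome 19 lay at -0.02.

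RNA classes differed in direction. Of 84 small nucleolar RNA genes by RefSeq class 76 were lower (median -0.23), whereas 7 of 33 microRNA genes (median 0.18) and 70 of 178 long noncoding RNA genes (median 0.09) were. Arrays of this kind read microRNA genes mainly through precursors or host transcripts.

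The lower values of ZNF genes were not limited to the clusters of chromosome 19. On that chromosome 97 of 132 ZNF genes were lower (median -0.15) and elsewhere 118 of 162 (median -0.13), while 364 of 735 other genes of chromosome 19 were (median 0.00).

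The adjacent membrane protein genes TMEM176A and TMEM176B were both lower in CD133-positive cells, at 5.61 against 6.55 and at 5.89 against 6.70.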
